A study of Sus scrofa with 8 samples.

Results

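The small leucine-rich proteoglycans described here were decorin (DCN), biglycan (BGN), asporin (ASPN), lumican (LUM), fibromodulin (FMOD), keratocan (KERA), PRELP and osteoglycin (OGN). They were chosen by gene symbol, and each of the 8 symbols matched a row in all 8 count matrices, out of 21301 genes. Together they contributed from 745 UMIs (KERA) to 91671 UMIs (OGN) per gene over the series, where a UMI is a molecular barcode that counts 1 captured transcript.

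The study profiled single cells of pig embryos during the onset of skeletal muscle formation, with 10x Genomics 3′ libraries. Somite tissue was taken at embryonic day (E) 16, E18 and E21, and myotome tissue at E28. At each stage there was 1 library of Tibetan pigs (ZZ) and 1 library of the DurocxTibetan cross (DZ), and each library was a pool of embryos from a single sow, so that sow and library cannot be told apart from breed within a stage. The labels name no treatment or transgene. The E16 and E18 libraries are called early and the E21 and E28 libraries late, with 4 libraries in each, and p-values measure the spread between these libraries. Tissue changed with stage at E28, and the E16 libraries were processed with another Cell Ranger version (3.1.0 against 3.0.2), so that neither can be told apart from stage there.

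Small leucine-rich proteoglycans are secreted proteins built from leucine-rich repeats. They bind collagen fibrils, set the spacing and diameter of those fibrils, and hold growth factors such as those of the TGF-beta family in the matrix. DCN and BGN carry chondroitin or dermatan sulfate chains and ASPN, their close relative, usually carries none. LUM, FMOD and KERA can carry keratan sulfate, PRELP is a heparin-binding relative enriched in cartilage, and OGN belongs to a separate class known from bone and connective tissue. In somite derivatives these proteins mark connective tissue, tendon and cartilage matrix.

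Of 90688 barcodes, 74147 cells were kept with 382956742 UMIs. Libraries held 5436 to 10956 cells with a median of 3405 to 6160.5 UMIs per cell. E16-ZZ stood apart, because 39.16% of its barcodes exceeded the limit on mitochondrial reads against 1.05% to 9.15% in the other 7 libraries. Between 23 and 49 barcodes were shared by any 2 libraries. Summed myogenic markers (MYF5, MYOD1, MYOG, PAX7 and MYH3) lay between 3.04 and 32.5 UMIs per 1000000 UMIs (CPM) in early and between 156 and 627 in late libraries, beside 504 to 1329 and 1032 to 2511 for the fibroblast markers.

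Cells were placed in 4 gates by their own counts. COL1A2+ cells had at least 5 UMIs of the fibrillar collagen gene COL1A2 and more than of COL2A1, COL2A1+ cells had at least 5 UMIs of the cartilage collagen gene COL2A1 and no fewer than of COL1A2, PAX1+ cells had at least 1 UMI of the sclerotome factor PAX1 and belonged to neither, and the rest were called other. The gates held 21338, 3784, 3987 and 45038 cells. Summed fibroblast markers in COL1A2+ cells lay between 1875 and 3695 CPM over the 8 libraries, against 307 to 1718 in other cells. Summed chondrocyte markers in COL2A1+ cells lay between 266 and 417 CPM in early and between 970 and 5983 in late libraries. Summed sclerotome markers in PAX1+ cells lay between 17.3 and 30.2 in early and between 46.1 and 79.4 in late libraries. COL1A2+ cells made up 16.8% ± 5.90 (SD, n = 4) of early and 39.1% ± 21.6 (SD, n = 4) of late cells (exact two-sided permutation p = 0.114). COL2A1+ cells rose from 3.16% ± 0.694 to 6.79% ± 1.41 (SD, n = 4 each, exact permutation p = 0.0286, the smallest that 4 against 4 libraries allow), which did not pass with the gate at 3 UMIs or with PAX1 taken first. PAX1+ cells made up 5.86% ± 3.38 and 4.70% ± 2.29 (SD, n = 4 each, exact permutation p = 0.629).

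All members but BGN lay in 3 short clusters on the pig assembly Sscrofa11.1. On chromosome 3, OGN (chr3:42116521-42135940) and ASPN (chr3:42165553-42192902) were transcribed from the minus strand, separated by OMD and followed by ECM2, over 127.2 kb. On chromosome 5, DCN (chr5:91678601-91713925), LUM (chr5:91748871-91756381) and KERA (chr5:91794317-91802362) followed each other on the plus strand with EPYC behind them, over 199.2 kb. On chromosome 9, FMOD (chr9:64062995-64073853, minus strand) and PRELP (chr9:64190978-64207008, plus strand) lay with OPTC in 158.0 kb. BGN (chrX:124282048-124295450, plus strand) stood alone on chromosome X. The RefSeq models of the members had 3 exons (LUM, FMOD) to 10 exons (DCN).

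The promoter windows of 3 members are shown: OGN and ASPN as neighbours that both rose from E21 to E28, and BGN, which stands alone on chromosome X. BGN was not called late against early, as DCN and FMOD were not, but it was called higher from E21 to E28. Each window runs from 250 bases before to 50 bases after the start of the RefSeq gene, 5′ to 3′ on the gene's own strand, and capitals mark CANNTG, the E-box letters that factors such as scleraxis and MYOD1 bind; the BGN window holds none.
OGN, chr3:42135891-42136190, minus strand: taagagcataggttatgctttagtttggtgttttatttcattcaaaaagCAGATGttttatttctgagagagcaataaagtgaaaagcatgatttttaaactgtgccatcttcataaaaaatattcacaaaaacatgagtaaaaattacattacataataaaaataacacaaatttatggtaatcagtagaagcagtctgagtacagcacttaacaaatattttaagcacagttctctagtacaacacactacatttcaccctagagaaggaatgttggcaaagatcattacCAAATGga
ASPN, chr3:42192853-42193152, minus strand: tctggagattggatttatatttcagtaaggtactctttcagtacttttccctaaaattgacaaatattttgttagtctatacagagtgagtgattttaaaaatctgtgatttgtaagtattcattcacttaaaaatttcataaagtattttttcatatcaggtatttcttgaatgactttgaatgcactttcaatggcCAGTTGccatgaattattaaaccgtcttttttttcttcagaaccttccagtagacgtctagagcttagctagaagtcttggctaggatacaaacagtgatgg
BGN, chrX:124281798-124282097, plus strand: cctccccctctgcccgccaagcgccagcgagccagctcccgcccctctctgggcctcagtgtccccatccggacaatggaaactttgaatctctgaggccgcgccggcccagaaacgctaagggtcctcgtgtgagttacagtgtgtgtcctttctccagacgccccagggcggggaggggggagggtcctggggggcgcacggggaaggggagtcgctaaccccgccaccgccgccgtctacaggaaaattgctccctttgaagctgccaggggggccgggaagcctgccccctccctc
The G and C share of these windows was 30.0% for OGN, 32.0% for ASPN and 67.7% for BGN, beside a median of 58.7% over 19556 windows of the same length. CANNTG, whose letters read the same on both strands, occurred in the OGN and ASPN windows and in 67.79% of all windows. On either strand, TATAAA occurred in the ASPN window and in 10.93% of all windows, CCAAT in the ASPN window and in 35.43%, and GGGCGG in the BGN window and in 50.6%. No matches of different motifs overlapped in these windows. These are letter matches only, and the RefSeq start need not be the start used in these cells.

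Levels are in CPM of the library or gate. Values for several libraries follow stage, and within a stage ZZ comes before DZ. The level of a whole library mixes the number of cells with the RNA per cell, and fewer cells and less RNA per cell cannot be told apart in it. Fold changes and adjusted p-values come from edgeR's quasi-likelihood test over all genes with Benjamini-Hochberg adjustment, on counts summed per library. All 8 members passed the filter on low counts in the whole libraries, but ASPN, KERA and PRELP did so only through their late libraries, and so had to differ. A member that the filter would have removed on the lower group alone is given by its levels, without a test, and is left out of the counts of called members.

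Of the 5 members that passed the filter in both periods of the whole libraries, 2 were called between late and early libraries, both higher (LUM and OGN), where 34.4% of 14683 genes were called in either direction. The median log2 fold change was 1.64 for these 5 members and 0.02 for all genes. Between E16 and E18, 0 of 5 members were called, beside 4.7% of genes. FMOD was the 1 member of these with an unadjusted p under 0.05 in edgeR, beside 4040 of 15119 genes, and DESeq2 called it at an adjusted p under 0.05, beside 2145 genes. Between E18 and E21, 1 of 5 members (OGN) was called, higher, beside 21.2% of genes. Between E21 and E28, 4 of 7 members (OGN, BGN, FMOD and PRELP) were called, all higher, beside 8.53% of genes. Whether members differed in timing was not tested. The comparisons of adjacent stages share libraries, and each stage had 2.

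**Figure D1:**
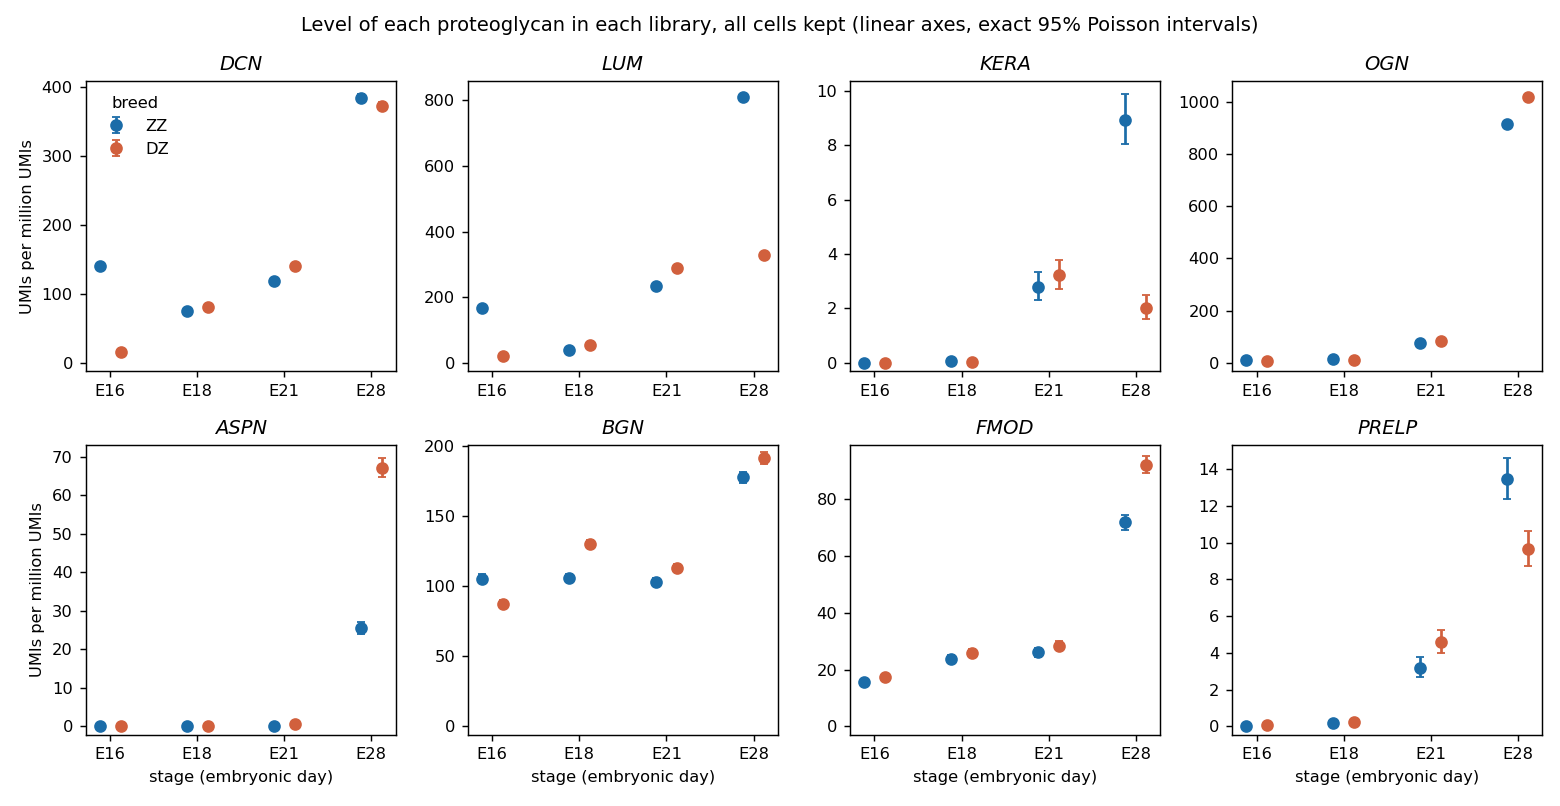
CPM (y axis, linear, a separate scale for each gene) of each proteoglycan in each library against stage (x axis), with exact 95% Poisson intervals that cover counting error only and ZZ and DZ libraries as separate points. OGN stays between 7.98 and 12.4 in the early libraries and reaches 915 and 1019 at E28, while BGN stays between 87.4 and 191 throughout.

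OGN, known from bone and connective tissue, was called in each step after E18. Its level was 11.8, 7.98, 12.4 and 11.8 in the early libraries, 74.3 and 82.4 at E21, and 915 and 1019 at E28. The early, E21 and E28 values did not overlap, and the 2 breeds lay close together at each late stage. OGN rose by 2.61 ± 0.21 (log2 fold change ± SE) from E18 to E21 (adjusted p = 0.00144) and by 3.60 ± 0.22 from E21 to E28 (adjusted p = 0.00280). Late against early the log2 fold change was 5.39 ± 1.00 (adjusted p = 0.00700), and the call was lost without both E16 libraries (5.34, adjusted p = 0.0890).

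The rise of OGN was seen in every gate. In COL1A2+ cells its level was 10.2, 6.87, 11.6 and 8.98 in the early libraries, 98.4 and 85.0 at E21, and 1084 and 1227 at E28. In PAX1+ cells it was 12.8 to 20.4 in early libraries, 139 and 117 at E21, and 1266 and 1633 at E28, the highest of the gates at that stage. OGN was called higher in PAX1+ than in other cells (log2 fold change 0.85 ± 0.14, adjusted p = 0.000212), and 4 of 6 members were called in that comparison (OGN, BGN, FMOD and PRELP, all higher) beside 19.3% of genes. Late against early, OGN rose by 5.87 ± 1.01 in COL1A2+ cells (adjusted p = 0.00577), 5.12 ± 0.77 in COL2A1+ cells (adjusted p = 0.00360), 5.37 ± 0.85 in PAX1+ cells (adjusted p = 0.00146) and 4.78 ± 0.89 in other cells (adjusted p = 0.00670) on the log2 scale. Without both E16 libraries the call was lost in COL1A2+ (adjusted p = 0.0632), COL2A1+ (adjusted p = 0.0698) and other cells (adjusted p = 0.0871).

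OGN UMIs were also found in sets of cells chosen by markers of other cell types. In the early libraries endothelial cells held 5.24 to 11.9 CPM, neuron-marked cells 10.7 to 14.7 and erythroid cells 2.14 to 5.90. The early COL1A2+ levels of 6.87 to 11.6 lay above the erythroid range and within the combined endothelial and neuron-marked range, so they were not read as expression, while the early PAX1+ levels reached above all 3 sets. At E28, OGN was at 30.0 and 31.7 in endothelial cells, 22.8 and 27.5 in erythroid cells, 23.3 and 41.0 in neural crest and glial cells, and 29.4 and 37.2 in myogenic cells of E28-ZZ and E28-DZ. Neuron-marked cells at E28 held far more, with OGN at 559 and 771 and DCN at 392 and 336. This set is therefore no clean background at E28, and whether it is one in the early libraries was not tested. The COL1A2+ and PAX1+ levels of OGN at E28 were above those of all 5 sets in the same library. With each cell thinned to 1500 UMIs, the share of COL1A2+ cells with a UMI of OGN was 1.29% to 1.77% in early libraries, 11.2% and 10.8% at E21, and 56.8% and 62.8% at E28; among endothelial cells at E28, which were deeper (median 10282 and 9874 UMIs against 3978 and 3644), it was 1.72% and 7.27%. Without thinning the COL1A2+ shares were 5.82% to 9.53% in early libraries, 24.7% and 25.9% at E21, and 71.1% and 76.0% at E28, with 30.5% and 23.6% in endothelial cells at E28. The endothelial shares rest on few cells, since the 4 late libraries held 237 endothelial cells in all.

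ASPN, a decorin relative next to OGN on chromosome 3, gave 3935 of its 3980 UMIs at E28. The whole-library level was 0.0502, 0, 0.139 and 0.0189 in the early libraries, 0.136 and 0.610 at E21, and 25.6 and 67.2 at E28. The 4 early libraries held 11 ASPN UMIs of 207769143, and 9 of these lay in erythroid cells, a gate with 5022125 early UMIs. The E28 libraries lay above all others, and because ASPN passed the filter only through them, no test is given.

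Within COL1A2+ cells no ASPN UMI was found in 46650861 early UMIs, which allows a level of up to 0.0643. The late levels there were 0.235 (2 UMIs) and 1.40 (19 UMIs) at E21, and 33.9 and 84.5 at E28, so that the E28 libraries carried the late mean. That mean of 30.0 was at least 467-fold higher than the early limit, and without E28-DZ it was 11.8 and at least 184-fold higher. At E28 the level in PAX1+ cells was 28.9 and 43.7, and in COL2A1+ cells 10.6 and 26.5, below the COL1A2+ level of the same library.

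DCN and LUM, collagen-binding proteoglycans with dermatan and keratan sulfate chains, are neighbours on chromosome 5. DCN was at 140, 15.4, 75.0 and 80.9 in the early libraries, 118 and 141 at E21, and 384 and 371 at E28. E16-ZZ overlapped the E21 libraries, and the late-against-early change of 1.64 ± 0.65 on the log2 scale did not pass (adjusted p = 0.0816). It passed without E21-ZZ (2.03, adjusted p = 0.0371). From E21 to E28 the DCN change of 1.47 ± 0.76 did not pass (adjusted p = 0.274) but did without E16-ZZ (adjusted p = 0.0101) or E16-DZ (adjusted p = 0.0104), and from E18 to E21 the LUM change of 2.39 ± 0.82 (adjusted p = 0.0819) passed without the same libraries (adjusted p = 0.0249 and 0.0254). The DCN change of 0.68 ± 0.75 from E18 to E21 (adjusted p = 0.552) also passed without E16-ZZ (0.65, adjusted p = 0.0434) or E16-DZ (0.65, adjusted p = 0.0442). Leaving out each library in turn, it ran from -0.155 to 1.23. The LUM change from E18 to E21 then ran from 1.21 to 3.54, and the DCN change from E21 to E28 from 0.901 to 2.29. LUM was at 166, 19.2, 39.8 and 55.4 in the early libraries, 235 and 290 at E21, and 810 and 328 at E28. Its late and early libraries did not overlap and the change was called at 2.52 ± 0.62 (adjusted p = 0.0174), though not without E16-DZ (2.23, adjusted p = 0.0519), without E28-ZZ (2.18, adjusted p = 0.0644) or at a mitochondrial limit of 5% (1.72, adjusted p = 0.0770).

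DCN and LUM were higher in COL1A2+ than in other cells of every library, early and late. In early COL1A2+ cells DCN was at 421, 73.0, 236 and 295, while early other cells held 13.1, 6.93, 24.3 and 14.3. LUM was at 473, 98.8, 114 and 173 in these COL1A2+ cells and at 24.6, 7.58, 15.0 and 15.4 in the other cells. COL1A2+ cells held 61.2% (E16-DZ) to 93.4% (E16-ZZ) of the DCN UMIs of an early library. Over all 8 libraries 4 of 7 members were called between COL1A2+ and other cells, all higher, beside 19% of genes: DCN by 2.67 ± 0.43 (adjusted p = 0.000078), LUM by 2.48 ± 0.37 (adjusted p = 0.000023), BGN and FMOD. The call for FMOD (0.73 ± 0.26, adjusted p = 0.0476) was lost without any of the libraries of E18, E21 and E28 (adjusted p = 0.0867 to 0.156). In E16-ZZ and E16-DZ the FMOD level was lower in COL1A2+ than in other cells, as was that of BGN in E16-DZ.

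**Figure D2:**
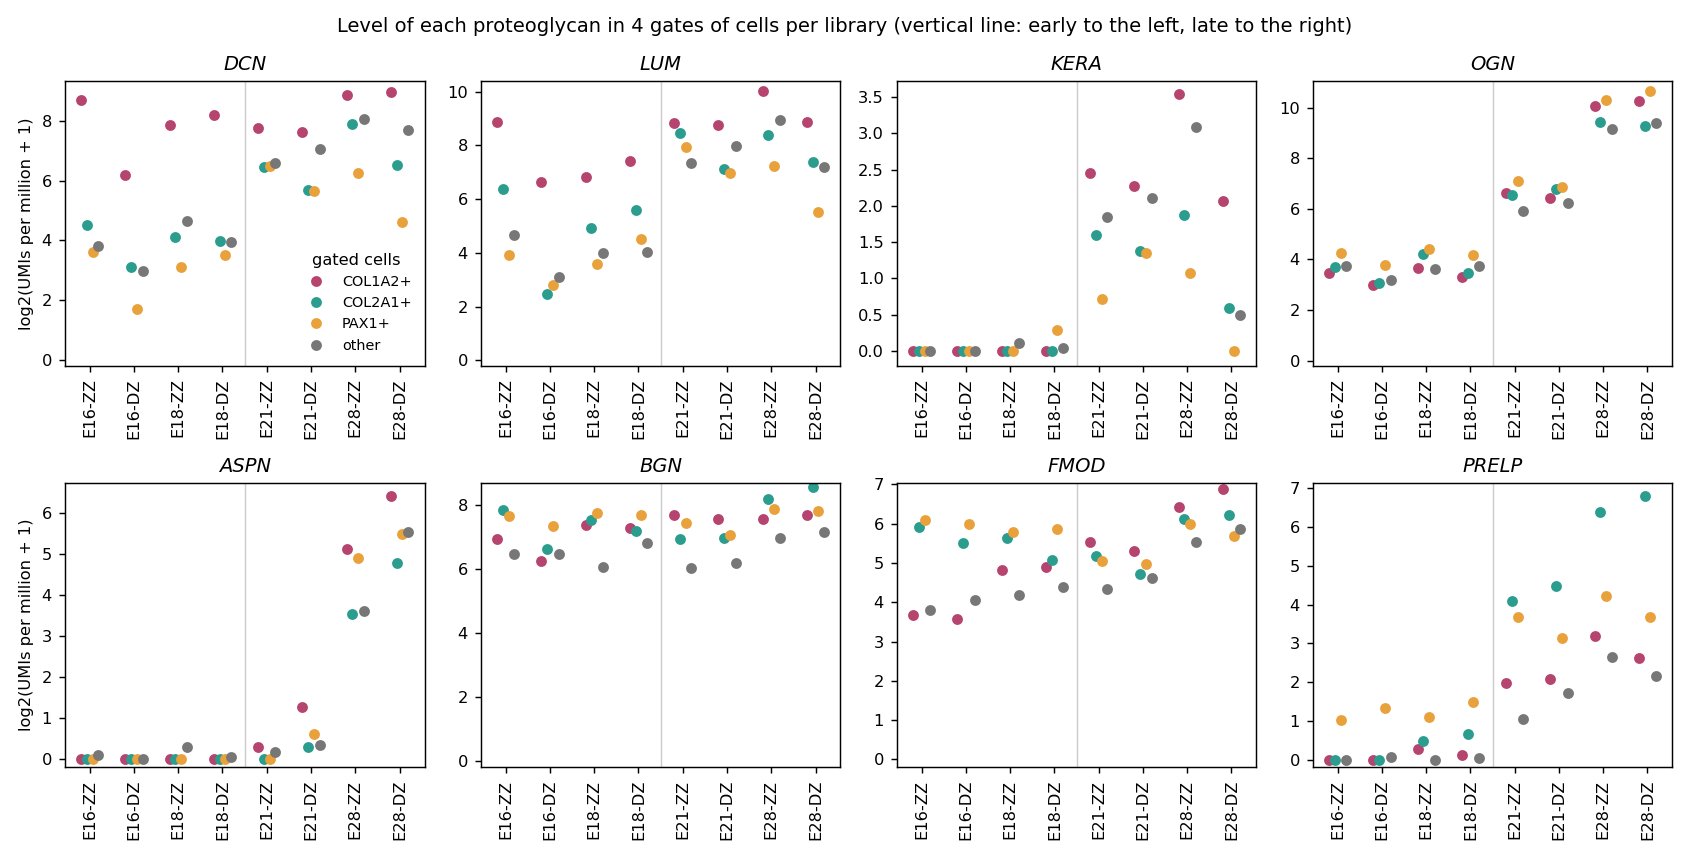
Level of each proteoglycan, as log2(CPM + 1) on the y axis, in COL1A2+, COL2A1+, PAX1+ and other cells of each library (x axis, a separate y scale for each gene). DCN and LUM lie highest in COL1A2+ cells of every library, early and late. PRELP lies highest in COL2A1+ cells of the late libraries, and OGN lies higher in late than in early libraries in all 4 gates.

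Fits of the early and of the late libraries alone were added after seeing the data. In the early libraries alone DCN was 4.05 ± 0.23 higher (log2) in COL1A2+ than in other cells (adjusted p = 3.58e-08). In the late libraries alone DCN was 0.98 ± 0.33 higher there (adjusted p = 0.0636). Late against early, the DCN change did not pass the test within COL1A2+ cells (0.31 ± 0.51, adjusted p = 0.661), where its late levels were 215 and 197 at E21 and 465 and 505 at E28, so that the E21 libraries lay below 3 of the 4 early ones. It rose within COL2A1+ cells by 2.93 ± 0.39 (adjusted p = 0.00226), within PAX1+ cells by 2.75 ± 0.37 (adjusted p = 0.000559) and within other cells by 3.48 ± 0.43 (adjusted p = 0.00201). The difference of these changes from the change in COL1A2+ cells was itself tested, in comparisons also added after seeing the data. It was 2.60 ± 0.52 for COL2A1+ cells (adjusted p = 0.000907), where 2 of 5 members (DCN and FMOD) and 20% of genes were called. It was 2.75 ± 0.59 for PAX1+ cells (adjusted p = 0.00404), where the same 2 of 5 members and 10.2% of genes were called. It was 3.06 ± 0.43 for other cells (adjusted p = 4.19e-05), where DCN, LUM and OGN, 3 of 5 members, and 12.1% of genes were called. Depth moved with stage, since the median was 6545.5 to 9027 UMIs per COL1A2+ cell in early and 3644 to 5301.5 in late libraries, against 4221 to 5415.5 and 3198 to 4162 in other cells, and the gates need a fixed number of UMIs. The difference for DCN in other cells was 2.61 (adjusted p = 0.000739) with the gate at 3 UMIs and 3.54 (adjusted p = 9.08e-07) with the gate at 10 UMIs, and the part of depth in it was not tested. For OGN the difference in other cells was -0.92 ± 0.20 (adjusted p = 0.00397). The early COL1A2+ levels of OGN were not read as expression, so no smaller rise is read from this difference.

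LUM rose in other cells by 3.92 ± 0.46 (adjusted p = 0.00178), which exceeded its change in COL1A2+ cells (1.33 ± 0.48, adjusted p = 0.0644) by 2.41 ± 0.45 (adjusted p = 0.00104). Within COL1A2+ cells the LUM change passed without E16-ZZ (1.99, adjusted p = 0.0158) or E21-ZZ (1.59, adjusted p = 0.0487), and with DESeq2 (adjusted p = 0.0114). LUM also rose in COL2A1+ cells by 2.63 ± 0.54 (adjusted p = 0.0111) and in PAX1+ cells by 3.18 ± 0.46 (adjusted p = 0.000943). For both ZZ and DZ the PAX1+ levels of DCN and LUM were lower at E28 than at E21. LUM had 772 UMIs of 3111584 (ZZ) and 243 of 1931079 (DZ) in PAX1+ cells at E21. At E28 it had 135 of 899785 (ZZ) and 49 of 1097390 (DZ). DCN had 279 (ZZ) and 96 (DZ) UMIs in these sums at E21, and 69 and 26 at E28. At E28 the PAX1+ level of LUM lay above that of endothelial cells in ZZ but slightly below it in DZ. The PAX1+ level of DCN lay above the endothelial level in ZZ and in DZ. These differences were not tested. In each of the 4 gates DCN, LUM, OGN, BGN and FMOD passed the filter in both periods. In COL1A2+ cells 2 of these 5 were called late against early (OGN and FMOD), beside 31.5% of genes. In COL2A1+, PAX1+ and other cells 3 of the 5 were called (DCN, LUM and OGN), beside 19.5%, 26.9% and 34% of genes. Markers of further cell types moved in the same sums: the neuron list in other cells ranged from 44.5 to 185 CPM in early and 618 to 2989 in late libraries, the fibroblast list there from 307 to 517 and 617 to 1718. Their part in the rise of DCN and LUM was not tested.

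DCN and LUM UMIs were also found in myogenic cells. Among other cells with at least 3 UMIs of the myogenic markers, DCN was at 19.1 and 10.4 at E18. It was 164 and 117 at E21, and then 337 and 266 at E28 (exact 95% Poisson intervals 316 to 359 and 250 to 282 at E28). LUM in the same cells went from 3.37 and 3.48 to 143.1 and 81.8 and then 173 and 154.9. Endothelial cells at E28 held DCN at only 1.50 and 3.02 and LUM at 85.5 and 48.3, and erythroid cells held DCN at 6.52 and 6.87. These DCN levels rest on very few UMIs, since the late libraries held 237 endothelial and 183 erythroid cells in all. A single ASPN UMI amounted to 1.51 CPM in 1 late endothelial set. DCN in myogenic cells thus lay far above the endothelial and erythroid levels, and LUM above the endothelial level by less, while neuron-marked cells held DCN at 392 and 336. FMOD in myogenic cells was lowest at E28 (15.6 and 18.1), after 61.7 and 34.8 in the E18 libraries and 35.3 and 25.7 in those of E21. OGN in myogenic cells was close to the endothelial value at E28 (29.4 and 37.2 against 30.0 and 31.7). These sets were described without a test.

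**Figure D3:**
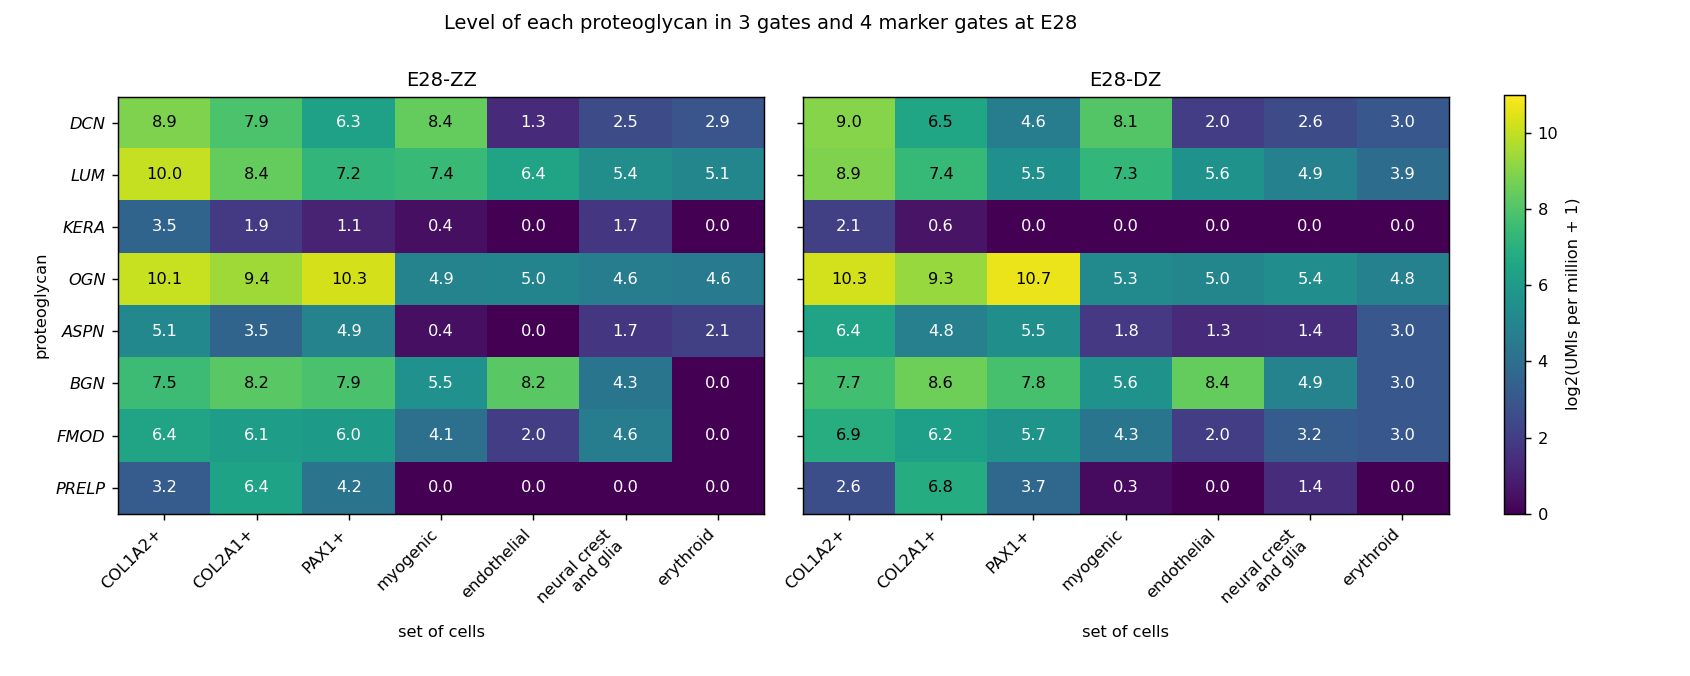
Heat map of log2(CPM + 1) for the 8 proteoglycans (rows) in 3 gates and 4 sets of other cells chosen by marker genes (columns), 1 panel per E28 library. DCN is high in COL1A2+ and myogenic cells, BGN in endothelial cells and PRELP in COL2A1+ cells, while OGN is at 626 or above in the 3 gates and at 41.0 or below in the 4 sets; neuron-marked cells, which are not drawn, held OGN at 559 and 771.

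KERA, the third gene of the chromosome 5 cluster, was scarce. It was at 0, 0, 0.0521 and 0.0378 CPM in the early libraries, 2.79 and 3.22 at E21, and 8.93 and 2.01 at E28. The early libraries held 5 KERA UMIs in all against 740 late. The late libraries did not overlap the early ones, but KERA passed the filter only through them. From E21 to E28 the change was 0.53 ± 0.66 (adjusted p = 0.660), with E28-ZZ above and E28-DZ below both E21 libraries. In COL1A2+ cells it was at 0 in all early libraries and at 4.47, 3.83, 10.6 and 3.18 in the late libraries. The late mean of 5.53 was at least 86.0-fold higher than the early limit. Without E28-ZZ that mean was 3.83 and at least 59.5-fold higher.

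PRELP, a heparin-binding relative enriched in cartilage, was higher in COL2A1+ than in COL1A2+ cells. In COL2A1+ cells its level was 0, 0, 0.396 and 0.587 in the early libraries, 15.9 and 21.1 at E21, and 83.2 and 111 at E28. In COL1A2+ cells the late values were 2.94, 3.24, 8.17 and 5.18, all below those of COL2A1+ cells in the same library. PRELP was 3.29 ± 0.42 higher (log2) in COL2A1+ than in COL1A2+ cells (adjusted p = 9e-06), where 3 of 6 members were called beside 13.8% of genes. The other two, DCN (-3.02 ± 0.46, adjusted p = 0.000084) and LUM (-2.02 ± 0.37, adjusted p = 0.000607), were lower. In PAX1+ cells PRELP was above other cells by 2.78 ± 0.46 (adjusted p = 0.000168), and 16 of its 26 early UMIs lay in PAX1+ cells, which held 11115905 of 207769143 early UMIs. In whole libraries PRELP was at 0.0251, 0.0696, 0.156 and 0.227 in early libraries, 3.20 and 4.60 at E21, and 13.5 and 9.65 at E28. The late libraries lay above the early ones, whose levels alone would not have passed the filter. The rise of 1.59 ± 0.37 from E21 to E28 (adjusted p = 0.0471) lost its call without any library but E28-DZ (adjusted p = 0.0642 to 0.205).

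BGN, a decorin relative with glycosaminoglycan chains, had the smallest ratio of its highest to its lowest level over the libraries. Its whole-library level was 105, 87.4, 106 and 130 in the early libraries, 103 and 113 at E21, and 178 and 191 at E28. The E21 libraries lay within the early range and late against early gave 0.26 ± 0.22 (adjusted p = 0.383). The E21 to E28 change of 0.75 ± 0.16 (adjusted p = 0.0363) was lost without any 1 of the libraries of E18, E21 or E28 (adjusted p = 0.0583 to 0.145). Endothelial cells held BGN at 174 to 337 CPM in the 8 libraries, while erythroid cells held 0 to 15.7. It was higher in COL1A2+ (0.83 ± 0.18, adjusted p = 0.00149) and in PAX1+ (1.05 ± 0.18, adjusted p = 0.000261) than in other cells on the log2 scale. In E16-DZ, however, BGN was lower in COL1A2+ than in other cells.

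FMOD, a collagen-binding member with keratan sulfate, was higher in PAX1+ than in COL1A2+ cells in every early library and lower than there in every late library. In PAX1+ cells it was at 66.8, 62.5, 53.8 and 57.3 in the early libraries, 32.1 and 30.6 at E21, and 62.2 and 50.1 at E28. In COL1A2+ cells it was at 11.8, 10.9, 27.3 and 28.9 in early libraries, 44.8 and 38.5 at E21, and 84.6 and 116 at E28. FMOD rose within COL1A2+ cells by 1.69 ± 0.42 (adjusted p = 0.0197), a call lost without E16-ZZ, E16-DZ, E28-ZZ or E28-DZ (adjusted p = 0.0524 to 0.0684), and changed by -0.60 ± 0.22 within PAX1+ cells (adjusted p = 0.0646), which passed without E28-ZZ (adjusted p = 0.0208). These changes differed by -2.12 ± 0.33 (adjusted p = 0.000157). For COL2A1+ cells the difference from COL1A2+ cells was -1.48 ± 0.31 (adjusted p = 0.00158), which was -0.71 at a mitochondrial limit of 5% (adjusted p = 0.160). In whole libraries FMOD was at 15.6, 17.3, 23.8 and 25.9 in the early libraries, and late against early gave 1.22 ± 0.42 (adjusted p = 0.0533), which passed without E21-ZZ (adjusted p = 0.0218) or E21-DZ (adjusted p = 0.0314). It rose by 1.57 ± 0.11 from E21 to E28 (adjusted p = 0.00283), from 26.0 and 28.4 to 71.8 and 92.2 in ZZ and DZ.

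Between the breeds no member was called, and 0% of 15119 genes were called; DESeq2 called 57 genes, no member among them, and 918 genes but no member had an unadjusted p under 0.05 in edgeR. The members' log2 fold changes (DZ against ZZ) ran from -0.91 ± 0.62 for KERA to 0.17 ± 0.08 for FMOD, without ASPN. Leaving out each library in turn, the change of KERA ran from -2.02 to 0.210 and that of PRELP from -0.171 to 0.682. At E28 the 2 libraries differed beyond counting error for all 8 members, whose exact 95% Poisson intervals were separate. These intervals treat UMIs as independent and leave out the spread between cells. Those of DCN barely missed each other (377.71 to 389.44 in ZZ and 365.63 to 377.29 in DZ). The largest ratios were those of LUM (810 in ZZ and 328 in DZ, intervals 802 to 819 and 323 to 334), ASPN (25.6 and 67.2, intervals 24.1 to 27.2 and 64.7 to 69.7) and KERA (8.93 and 2.01, intervals 8.06 to 9.87 and 1.61 to 2.49), while OGN was at 915 and 1019 and DCN at 384 and 371. With 1 library each this compares 2 libraries and not the breeds. The test of a different late-against-early change in DZ and ZZ called no member and 0% of 15119 genes, with 124 at an unadjusted p under 0.05 and 1 gene by DESeq2.

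Tenomodulin (TNMD) marks tendon cells. Among COL1A2+ cells of the 4 late libraries, those with a UMI of TNMD numbered 113, 144, 1045 and 493 per library. In this comparison 4 of 8 members were called, all higher in TNMD+ cells, beside 3.17% of genes. ASPN was at 0, 12.2, 64.7 and 223 in TNMD+ cells and at 0.251, 0.632, 27.0 and 71.7 in TNMD- cells (log2 fold change 1.56 ± 0.18, adjusted p = 0.000364; DESeq2 gave an adjusted p of 0.156). BGN was at 370, 358, 239 and 300 against 194, 174, 174 and 195 (0.74 ± 0.09, adjusted p = 0.000407). PRELP was called at 1.29 ± 0.24 (adjusted p = 0.00937) and OGN at 0.57 ± 0.11 (adjusted p = 0.0116). The call for PRELP was lost without E28-ZZ (adjusted p = 0.0795) or E28-DZ (adjusted p = 0.0769), and that for OGN without E28-DZ (adjusted p = 0.0757). The median depth of TNMD+ and TNMD- cells was 4356 and 4380.5 UMIs for E21-ZZ, 5623 and 5290 for E21-DZ, 4159 and 3938 for E28-ZZ, and 3648 and 3643 for E28-DZ.

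Detection in the same cell was compared after thinning each COL1A2+ cell to 1500 UMIs, so that depth was equal. At E28, 91.6% (exact 95% interval 87.2 to 94.9) and 93.4% (90.8 to 95.4) of the cells with ASPN also had OGN, beside 56.8% and 62.8% of all COL1A2+ cells. Of the cells with DCN, 70.3% (68.4 to 72.2) and 47.4% (45.3 to 49.5) also had LUM, beside 56.9% and 33.4% of all. Of the cells with KERA, 83.2% (75.0 to 89.6) and 83.3% (67.2 to 93.6) also had LUM. Of the cells with DCN, 53.7% (51.7 to 55.8) and 61.4% (59.4 to 63.4) had OGN, which is near its share of all COL1A2+ cells and slightly below it in E28-ZZ. Cells with at least 3 members made up 29.3% and 27.9% of the COL1A2+ cells at E28 and 1.04% to 7.02% in early libraries. Intervals cover counting error within a library only, and these cells are not replicates.

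**Figure D4:**
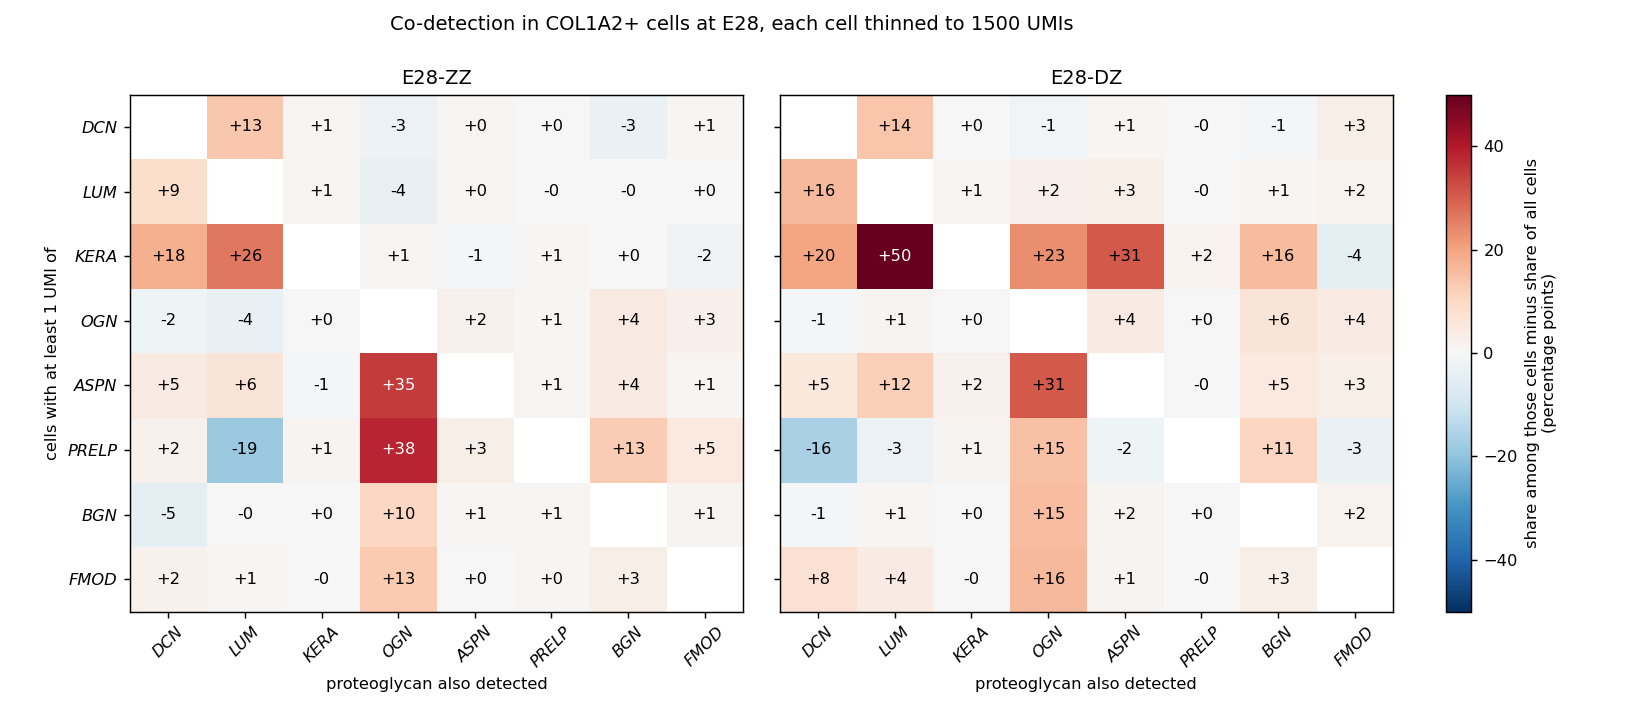
Share of COL1A2+ cells with the column gene among cells with the row gene, minus its share among all COL1A2+ cells, in percentage points, for the 2 E28 libraries with each cell thinned to 1500 UMIs. OGN among ASPN cells (91.6% and 93.4%) and LUM among DCN and KERA cells lie above their shares of all cells in both libraries.

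Over 32 sums (8 libraries by 4 gates, which share libraries and so are not independent), the Pearson correlation of log2(CPM + 1) was 0.93 for DCN with LUM, 0.89 for OGN with ASPN, 0.81 for OGN with PRELP, 0.79 for BGN with FMOD, 0.74 for LUM with KERA, 0.50 for the chromosome 9 neighbours FMOD and PRELP, and 0.13 for DCN with BGN. The genes most like each member were LUM, COX4I2 and EEA1 for DCN; DCN, EFEMP2 and COL12A1 for LUM; NFIX, LTBP3 and NFIC for OGN (r 0.97 to 0.96); CHRNB1, THBS4 and HIF3A for ASPN; FMOD, GPRC5C and CTDSPL for BGN; EPHA4, BGN and MXRA8 for FMOD; FAP, PGAM2 and ZFHX3 for KERA; and an unnamed gene (ENSSSCG00000035760), COL9A3 and MATN4 for PRELP (r 0.95 to 0.94). With a pseudocount of 0.1 in place of 1 the 3 most alike genes differed for OGN, ASPN, KERA and PRELP.

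Among the other small leucine-rich proteoglycans 8 of 9 listed genes were in the matrices and 7 were tested late against early. Of these, 4 were called higher and none lower, beside 34.4% of all genes called in either direction and 16.7% called higher. Unlike those of the members, the counts of this and the following lists were not limited to genes that passed the filter in both periods. Genes that had to differ may therefore be among the called ones. ECM2, next to ASPN, rose by 2.27 ± 0.23 from E21 to E28 (adjusted p = 0.00613). EPYC, next to KERA, was at 0.126 ± 0.0340 CPM at E21 and 18.2 ± 2.12 at E28 (SD, n = 2 each), while OMD, between OGN and ASPN, gave -0.45 ± 0.55 (adjusted p = 0.653). Of 31 listed genes for the synthesis of the sulfated chains, 25 were tested late against early, 4 were called higher and 2 lower, beside 34.4% of all genes called in either direction, with a median log2 fold change of 0.42 beside 0.02 for all genes. XYLT1, which starts chondroitin and dermatan but not keratan sulfate chains, gave 1.21 ± 0.23 (adjusted p = 0.00789). PAPSS2, which makes the sulfate donor, gave 2.71 ± 0.59 (adjusted p = 0.0116). CHPF, a chondroitin polymerizing factor, fell by 0.71 ± 0.20 (adjusted p = 0.0272). Of 21 collagens and known partners, 20 were tested, with 8 called higher and 1 lower, beside 16.7% and 17.7% of all genes. COL6A1 gave 3.47 ± 0.64 (adjusted p = 0.00683), COL12A1 2.66 ± 0.28 (adjusted p = 0.00182) and TGFB3 3.50 ± 0.48 (adjusted p = 0.00291), whereas TGFB1 fell by 1.82 ± 0.30 (adjusted p = 0.00473). COL1A2, COL1A1 and COL3A1 did not pass (adjusted p = 0.142, 0.474 and 0.192).

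**Figure D5:**
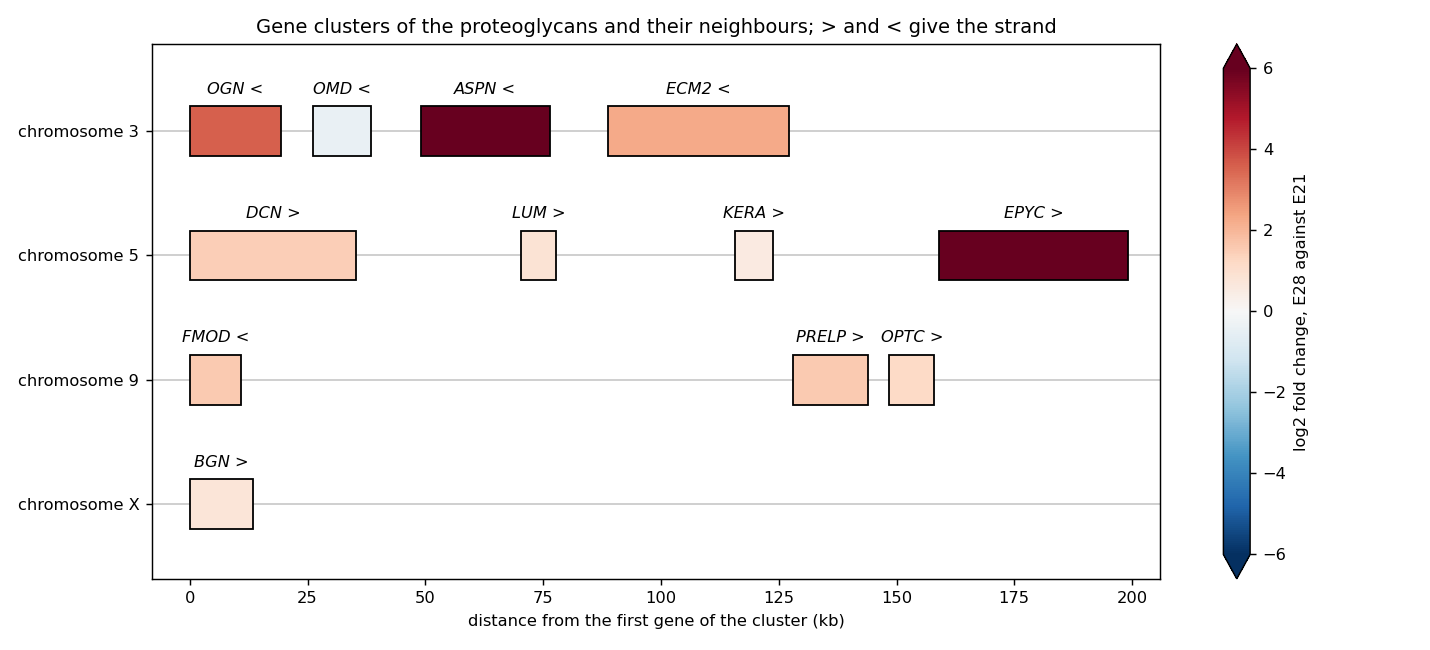
Position of the 8 proteoglycan genes and their neighbours within each cluster, with distance from the first gene in kb on the x axis, 1 row per chromosome and boxes coloured by the whole-library log2 fold change of E28 against E21. ASPN and EPYC, low in the E21 libraries, lie beyond the colour scale, and OMD (-0.45) sits between OGN (3.60) and ASPN.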

How the data were processed

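The deposited files hold UMI counts per gene and cell as the authors' Cell Ranger runs wrote them, version 3.1.0 for E16 and 3.0.2 for the other stages per the file headers, and the authors mapped to Sscrofa11.1 with Ensembl 98 annotation. Cells with at least 200 genes, at most 30000 UMIs and at most 10% of UMIs from 13 mitochondrial genes were kept. Scrublet (scanpy 1.11.5) scored doublets, and the highest scores of each library, a share that grew with its number of barcodes, were removed (8247 cells), because its automatic threshold marked only 325. Counts were summed per library, gate and TNMD status, with at least 20 cells per sum. These sums were tested in R 4.3.3 with the quasi-likelihood test of edgeR 4.0.16 (TMM normalization, filterByExpr, Benjamini-Hochberg adjustment over all genes tested, threshold 0.05). Breed was a covariate in comparisons between stages, stage a block between breeds, and library a block between gates. Gate shares were compared by the exact two-sided permutation test.

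Alternatives were DESeq2 1.42.0, its size factors, no filter on low counts, no doublet removal, a mitochondrial limit of 5%, gates at 3 and 10 UMIs, PAX1 taken first, and leaving out libraries. Intervals (95%, exact Poisson or binomial) and the floor of 3 counts cover counting error only. The text names the 8 members, whatever their values, and the 5 genes of the myogenic list. Of the other lists it gives values for at most 4 genes each, except for the collagens and known partners, where it gives more. The members and lists were chosen with earlier results of these data known. Positions and promoter windows come from RefSeq on Sscrofa11.1; the windows of the other members are not reported here. Each library held 39852689 to 57568895 UMIs in kept cells.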

Additional observations from a re-analysis of the deposited data

Results flagged for a closer look

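Of 75 groups of 4 libraries, 4 held a library whose gap to its nearest neighbour was large for the range of the group; chance gives this in about 1 in 20 groups. The LUM level of E28-ZZ was 810 CPM in whole libraries and 1.04e+03 in COL1A2+ cells, with the nearest late libraries at 328 and 462. The OGN level of E16-DZ was 7.98 with the nearest early library at 11.8. The KERA level in PAX1+ cells of E18-DZ was 0.226, from 1 UMI, while the other early libraries held no UMI.

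For DCN, LUM, OGN and FMOD the late-against-early change differed between gates by the test of the difference itself, with COL1A2+ cells as the reference. The difference was 2.60 for DCN and -1.48 for FMOD in COL2A1+ cells (log2). In PAX1+ cells it was 2.75 for DCN and -2.12 for FMOD. In other cells it was 3.06 for DCN, 2.41 for LUM and -0.92 for OGN. Because the early COL1A2+ levels of OGN were not read as expression, no smaller rise of OGN is read from its difference. ASPN, whose early COL1A2+ sums were at 0, is given by its levels only.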

How the results depend on the processing

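Over the alternatives to each log2 fold change of a member that passed the filter in both groups, 594 of the called values kept their side of the threshold and 55 lost it, 807 of the values not called stayed so and 56 passed, and none changed sign while called. Counts of members below cover the same members. The labels give no replicate numbers to pair libraries by, beyond the blocks of stage and library in the fits. With 2 libraries per stage, 1 per breed, single libraries decide many calls, and levels under the floor of 3 counts cannot be told from 0. The causes of the changes given here were not tested.

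Late against early, 2 members and 5048 genes were called in whole libraries and 2 and 4027 in COL1A2+ cells. Without the E28 libraries these were 1 and 2552 and 1 and 725, and genes called were 800 in COL2A1+, 1419 in PAX1+ and 3144 in other cells. Without the E16 libraries they were 1 and 1338 and 1 and 1553, with 367, 1193 and 1189 genes in COL2A1+, PAX1+ and other cells. DESeq2 called 1 member and 2145 genes from E16 to E18, 2298 genes from E21 to E28, 57 between breeds and 1 by breed. At a mitochondrial limit of 5%, calls were 1 member and 4440 genes late against early, 52 genes from E16 to E18, 2 members and 892 genes from E21 to E28, 1624 genes for PAX1+ against other cells, and 1 member and 1978 genes in the difference for COL2A1+ cells. Without the filter 1 gene was called between breeds, and 7 members and 664 genes for TNMD; without doublet removal 1 gene was called between breeds. A gate at 10 UMIs gave 2 members and 1886 genes for COL1A2+ against other cells and 789 genes within COL2A1+ cells. A gate at 3 UMIs gave 523 genes in the difference for PAX1+ cells. The early libraries alone, added after seeing the data, gave 2939 genes for COL2A1+ against COL1A2+ cells.

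The late minus early share of COL1A2+ cells was 22.4 percentage points, 28.5 with the gate at 3 UMIs, which then passed, 8.00 with the gate at 10 UMIs and 4.09 without E28. That of COL2A1+ cells was 1.81 with the gate at 3 UMIs and 2.05 with PAX1 first, and passed with neither. That of PAX1+ cells changed sign, to 1.54 with the gate at 10 UMIs, 3.46 with PAX1 first and 0.420 without E28. That of other cells was -25.9 without doublet removal and then passed.

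Leaving out each library in turn, members called ranged from 1 to 4 and genes from 2965 to 4680 late against early, from 0 to 1 and 17 to 989 from E16 to E18, from 1 to 3 and 373 to 3464 from E18 to E21, and from 2 to 4 and 327 to 982 from E21 to E28. Within COL1A2+ cells the ranges were 1 to 3 members and 2023 to 3920 genes, within COL2A1+ cells 995 to 1920 genes and within other cells 2886 to 4368 genes. For TNMD the ranges were 2 to 6 members and 224 to 368 genes. The share of COL2A1+ cells differed by 3.02 to 4.09 percentage points and that of PAX1+ cells by -2.23 to 0.114, the last without E18-DZ.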
